A study of Saccharomyces cerevisiae with 12 samples.

Results

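Budding yeast lacking HEL2 was compared with the wild type (WT) in the absence of any treatment, across all genes. The comparison took the 3 untreated libraries of the deletion strain and the 3 untreated libraries of the WT, 6 of the 12 libraries of the series. Of the 7109 genes in the count table, 6463 passed a filter on low counts and were tested. Each untreated deletion library came from BY4741 cells with the genotype delta-hel2, and each untreated WT library from BY4741 cells labelled as wild type. BY4741 is a haploid auxotrophic laboratory background of mating type a. All cells had been grown in rich medium (YPD) to an optical density of about 0.5. The other 6 libraries came from the same strains after 90 min with methyl methanesulfonate (MMS), an alkylating agent, at 30 °C. They entered the fit as the deletion strain with MMS and the WT with MMS, at 3 libraries each. The labels call replicates biological but do not say how the deletion was made, whether the strain was 1 clone, or what a replicate number shares. Libraries are named by group and number, from hel2_1 to WT_3.

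Hel2 is a ubiquitin ligase that recognises ribosomes that have run into each other on a messenger RNA. It ubiquitinates proteins of the small ribosomal subunit, and this marks the stalled ribosome for splitting and its nascent chain for destruction. Collided ribosomes can also activate the kinase Gcn2, with its partner Gcn1, which phosphorylates the initiation factor eIF2. Phosphorylated eIF2 lowers general initiation and raises translation of the transcription factor Gcn4, which activates amino acid synthesis genes. The question behind these strains, from the title of the series, is how quality control of ribosomes relates to this integrated stress response. The untreated comparison gives the level of messenger RNA in cells without Hel2 when no damaging agent was added.

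Depth was 48425721, 45890253 and 53638964 counts for hel2_1 to hel2_3, and 49717561, 41395764 and 45019819 for WT_1 to WT_3. The share of counts on cytosolic ribosomal protein genes was 23.3, 20.9 and 22.1% in the deletion strain and 24.0, 26.2 and 24.3% in the WT. On the first principal component of the 6 libraries, with 42.57% of the variance, the deletion libraries lay between -12.9 and -11.57 and the WT libraries between 11.15 and 13.51. The second component held 18.23% of the variance, and hel2_1 stood at 14.85 on it against -5.303 and -8.514 for hel2_2 and hel2_3. Genes that mark a cells, such as the pheromone genes MFA1 and MFA2, summed to 2770, 2600 and 2530 CPM in the deletion strain and to 2510, 2550 and 2400 CPM in the WT. CPM are counts scaled to a common library size. The 4 genes of alpha cells summed to only 2223, 2378 and 2471 counts in the deletion strain and to 2526, 2070 and 2442 counts in the WT, so both strains carried the markers of their background.

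The strains differed at the HEL2 locus and at LEU2. HEL2 (YDR266C, chromosome IV) had 27, 19 and 20 counts in the deletion libraries, against 2105, 1869 and 2431 in the WT libraries. Its log2 difference, deletion minus WT, was -6.82 ± 0.20 (SE, n = 3 per group, adjusted p = 6.53e-10, edgeR). The pair of genes on each side of HEL2 did not pass the test. Their differences were 0.11 for PEX10, 0.24 for AKR1, -0.11 for CIA1 and 0.18 for MSW1.

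LEU2 (YCL018W, chromosome III) encodes an enzyme of leucine synthesis and is one of the genes removed in BY4741. It had 21322, 24146 and 28105 counts in the deletion libraries, against 16, 19 and 2 in the WT libraries, a log2 difference of 10.73 ± 0.40 (adjusted p = 3.73e-08). The leucine transfer RNA gene tL(CAA)C had 456, 368 and 485 counts in the deletion libraries, against 0, 1 and 3 in the WT libraries, a difference of 8.02 (adjusted p = 3.73e-08). RefSeq (assembly R64) lists the leucine transfer RNA gene SUP53 beside LEU2, but the deposited table does not pair tL(CAA)C with it. A second leucine transfer RNA, tL(CAA)G2, had 42, 13 and 33 counts in the deletion strain, against 0, 10 and 4 in the WT (2.36, adjusted p = 0.0364), and was named after its values were seen. Both names carry the anticodon CAA, and whether reads of tL(CAA)C were counted at tL(CAA)G2 was not tested. Of the genes that neighbour LEU2, NFS1 differed by -0.15 and DCC1 by -0.03, and neither passed. The Ty element YCL019W differed by 0.53 (adjusted p = 0.78), and YCL020W had 0 counts in all 6 libraries. The other markers of the background did not pass: HIS3 differed by 0.12 (adjusted p = 0.278), MET17 by 0.48 (adjusted p = 0.589) and URA3 by -0.54 (adjusted p = 0.908). Effects of the presence of LEU2 and of the loss of HEL2 cannot be told apart in any difference described here.

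Leucine synthesis itself is shared by other genes of the branched-chain pathway and its activator Leu3. Of 15 genes of that list, LEU2 and BAT2 passed, both higher in the deletion strain. BAT2, the cytosolic branched-chain aminotransferase, had 390, 411 and 447 CPM in the deletion libraries, against 299, 309 and 302 CPM in the WT libraries, with a log2 difference of 0.46 ± 0.07 (adjusted p = 0.00235). The groups did not overlap at BAT2, as at every gene that passed. LEU4, the first committed enzyme of leucine synthesis, averaged 570 CPM in the deletion strain and 440 CPM in the WT (0.37 ± 0.14, adjusted p = 0.136). The other 12 members, among them ILV1, LEU1, LEU9 and the regulator LEU3, differed by -0.14 to 0.04, and none of them passed. The list median was -0.0863, against 0.0116 over all genes tested, and 0.0085 against 0.113 with library-size scaling.

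In all, 554 genes passed at an adjusted p under 0.05, which is 8.57% of the genes tested. Of these, 339 were higher in the deletion strain (5.25%) and 215 lower (3.33%). At an unadjusted p under 0.05 there were 1462 (22.6%). Most differences were small. The median size of a difference that passed was 0.46 on the log2 scale, against 0.151 over all genes, and 315 of the 554 were under 0.5. Only 46 genes (0.712%) passed with at least a 2-fold difference, 41 higher (0.634%) and 5 lower (0.0774%). The 5 lower ones were HEL2, the small nucleolar RNA snR60 and the unnamed genes YLR198C, YLR184W and YAL063C-A. Apart from HEL2 these had at most 41 counts in any of the 6 libraries, and each lost its call without hel2_1 (adjusted p = 0.104 for snR60, 0.0586 for YLR198C, 0.144 for YLR184W and 0.0794 for YAL063C-A). The libraries of the strains did not overlap at any of the 554 genes, while 31.9% of all genes tested had no overlap. Counts given for gene lists below are to be read beside the shares of all genes, 5.25% higher and 3.33% lower.

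The number of genes that passed depended on which libraries were in the fit. It was 336, 329 and 373 without hel2_1, hel2_2 and hel2_3, and 312, 305 and 319 without WT_1, WT_2 and WT_3. It was 1163 without WT_MMS_1, a treated library that shares the filter, the scaling and the estimate of spread. With scaling by library size alone, 440 genes were higher and 75 lower, so that 85.4% of calls were higher, against 61.2% here. The median difference of all genes was then 0.113, against 0.0116 here.

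**Figure D1:**
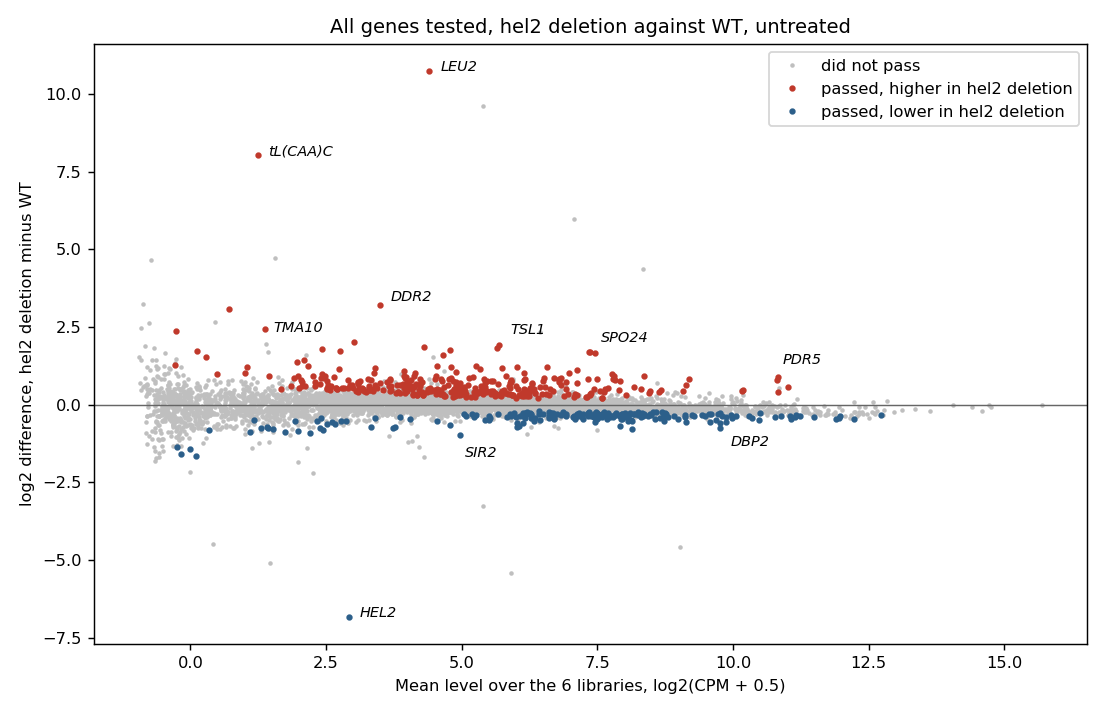
Log2 difference, hel2 deletion minus WT, of each of the 6463 genes tested (vertical axis) against its mean level over the 6 untreated libraries, log2(CPM + 0.5) (horizontal axis). Red points passed as higher in the deletion strain, blue points as lower and grey points did not pass. LEU2 and HEL2 stand far from the rest, and most of the 554 genes that passed lie within 1 log2 unit of no difference.

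Many genes that budding yeast raises under mild stresses through the transcription factors Msn2 and Msn4 were higher in the deletion strain. Of 52 genes in this general stress list, 33 were higher in the deletion strain, 0 were lower and 19 did not pass. The list median was 0.714, against 0.0116 over all genes, and 50 of the 52 differences were above 0. The count was between 30 and 32 when any 1 of the 6 libraries was left out. DDR2, a small stress protein gene first known from DNA damage, had 26.9, 35.2 and 32.6 CPM in the deletion libraries, against 3.60, 3.48 and 3.28 CPM in the WT libraries. Its log2 difference was 3.19 ± 0.25 (adjusted p = 9.14e-06). HSP12, which encodes a small protein that stabilises membranes, had 17.3, 14.0 and 13.6 CPM in the deletion strain, against 3.10, 4.62 and 3.52 CPM in the WT (2.00 ± 0.15, adjusted p = 7.15e-06). TMA10, a ribosome-associated protein gene, averaged 4.62 ± 0.497 CPM in the deletion strain and 0.847 ± 0.292 CPM in the WT (SD, n = 3 each), a difference of 2.44. All 3 genes were low in every WT library and several times higher in every deletion library.

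The list also holds genes of the storage carbohydrates trehalose and glycogen. TSL1, the regulatory subunit of the enzyme complex that makes trehalose, had 93.2, 99.0 and 106 CPM in the deletion libraries, against 29.5, 23.9 and 25.4 CPM in the WT libraries (1.92 ± 0.14, adjusted p = 4.73e-06). The other members of that complex were also higher, chosen for display after their values were seen. TPS1, the synthase, differed by 0.81, and TPS2, the phosphatase, by 0.70. TPS3, the second regulatory subunit, differed by 0.35, and lost its call without hel2_1 (adjusted p = 0.061), hel2_3 (0.0807), WT_2 (0.0916) or WT_3 (0.0908). NTH1, the trehalase that breaks trehalose down, was higher by 0.56, so genes of both synthesis and breakdown rose. GSY2, the main glycogen synthase, had 74.99, 78.1 and 84.4 CPM in the deletion strain, against 35.7, 33.3 and 36.2 CPM in the WT (1.17 ± 0.12, adjusted p = 8.7e-05). PGM2, the phosphoglucomutase that supplies glucose 1-phosphate to both stores, averaged 41.6 ± 3.00 CPM in the deletion strain and 18.1 ± 1.44 CPM in the WT (1.20 ± 0.14). Each of these genes that passed stood higher in every deletion library than in any WT library, as did every gene that passed as higher. The glycogen genes GSY1 (0.13), GLC3 (0.22), GDB1 (0.21) and GPH1 (0.70, adjusted p = 0.186) did not pass, and were named after their values were seen.

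The glucose-phosphorylating enzymes HXK1 and GLK1, also in the general stress list, were among the 15 leading rises. HXK1, a hexokinase that glucose normally holds down, had 95.7, 82.7 and 102 CPM in the deletion libraries, against 23.8, 28.5 and 26.9 CPM in the WT libraries (1.83 ± 0.11, adjusted p = 1.07e-06). HXK1 has a close paralog, HXK2, with which it may share reads. GLK1, glucokinase, had 261, 350 and 327 CPM in the deletion strain, against 105, 108 and 83.1 CPM in the WT (1.66 ± 0.20, adjusted p = 0.000273). Of 25 glycolysis and fermentation genes, 4 were higher and 0 lower, and besides HXK1 and GLK1 these were PYK2 (0.64) and TDH1 (0.64). The list median was -0.0134, against 0.0116 over all genes, and 0.0771 against 0.113 with library-size scaling. TDH3, the main glyceraldehyde 3-phosphate dehydrogenase gene, had 40494, 62237 and 57436 CPM in the deletion strain, against 57094, 53999 and 50569 CPM in the WT (-0.01, adjusted p = 0.974). Among 27 glucose-repressed genes only HXK1, the activator ADR1 (0.58) and SIP2 (0.40), a subunit of the Snf1 kinase complex, passed.

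Chaperone genes controlled by the heat shock factor Hsf1 also rose: 12 of 30 were higher, 0 were lower, and the median was 0.278. HSP26, a small heat shock protein that binds unfolded proteins, had 53.5, 38.0 and 59.1 CPM in the deletion strain, against 13.4, 16.1 and 15.2 CPM in the WT (1.75 ± 0.14, adjusted p = 9.14e-06). HSP78, the disaggregase of mitochondria, had 36.3, 34.3 and 35.6 CPM in the deletion strain, against 15.4, 14.1 and 14.9 CPM in the WT (1.26 ± 0.10, adjusted p = 8.57e-06). HSP104, the disaggregase of the cytosol, named after its values were seen, differed by 1.03 and HSP42, a second small heat shock protein, by 1.18. Some of these genes stand in the general stress list as well. By contrast, 0 of 25 genes of the unfolded protein response of the endoplasmic reticulum and 0 of 38 proteasome genes passed.

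Further genes among the 15 leading rises follow, of which YGP1 and SPI1 are also members of the general stress list. YGP1, a secreted glycoprotein gene that responds to nutrient limitation, had 243, 331 and 300 CPM in the deletion strain, against 92.0, 89.8 and 89.0 CPM in the WT (1.69 ± 0.16, adjusted p = 3.09e-05). SPI1, a wall protein gene, differed by 1.25 and NCE103, carbonic anhydrase, by 1.22. SPO24, a small protein gene linked to sporulation, had 288, 281 and 316 CPM in the deletion strain, against 90.5, 97.5 and 84.1 CPM in the WT (1.70 ± 0.11, adjusted p = 1.37e-06). DPI8 differed by 1.59. DAN1, a mannoprotein gene of anaerobic cells, was the most scattered of the leading rises, with 22.4, 33.1 and 60.6 CPM in the deletion strain, against 11.4, 13.0 and 7.40 CPM in the WT. Its difference of 1.87 (adjusted p = 0.0248) lost the call without hel2_3 (adjusted p = 0.0555), WT_1 (0.0851), WT_2 (0.0564) or WT_3 (0.091). Of 37 cell wall genes 5 were higher and 1 lower, and GSC2, a glucan synthase subunit, led the higher ones with 0.80. The list median was 0.00646 (-0.0165 with RLE scaling), against 0.0116 (-0.0105) over all genes. The 5 became 3 without hel2_2 or WT_2 and 2 without hel2_3 or WT_3, and were 10 with library-size scaling. The lower gene was UTR2 (-0.35), a wall transglycosylase, and the lower count was 0 without hel2_1, hel2_3, WT_1, WT_2 or WT_3 and 3 without WT_MMS_1. Genes with no standard symbol that had the smallest p after tL(CAA)C were YOR289W (1.15), YDL124W (0.92), YHR138C (0.81) and YNL115C (0.58), all higher.

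**Figure D2:**
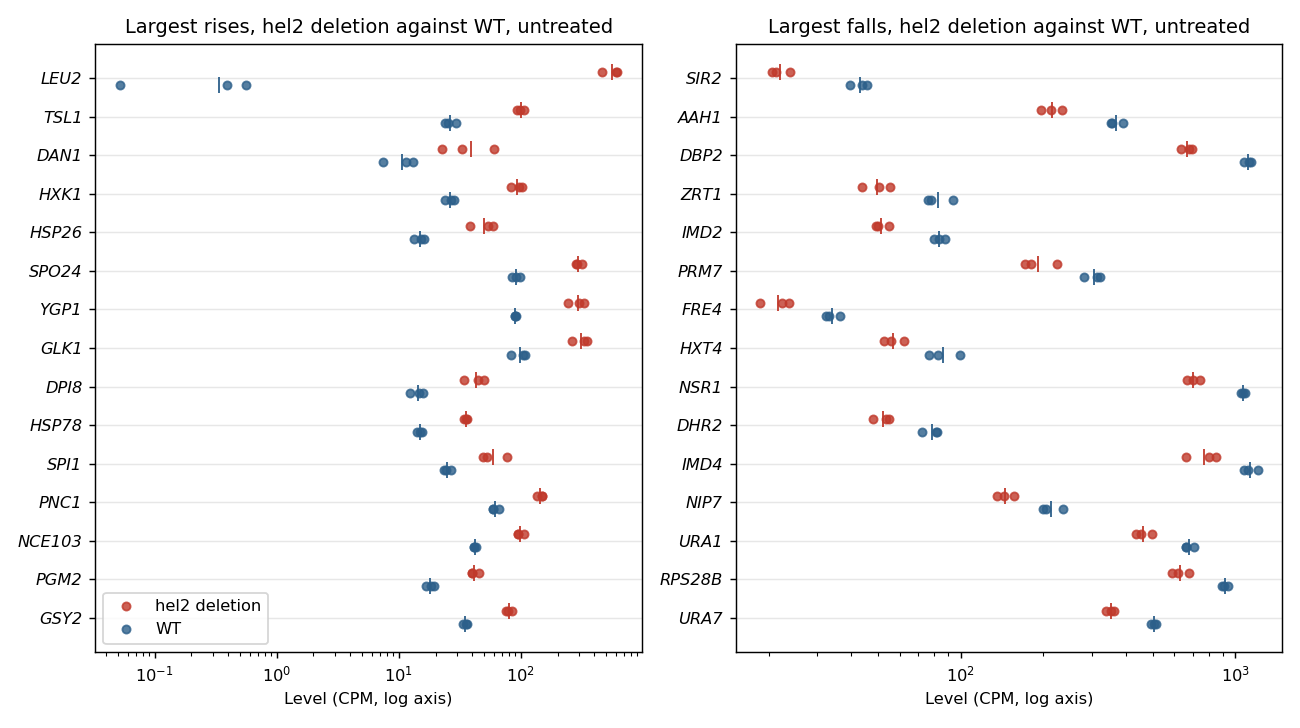
Level in each library (CPM, log axis) of the 15 genes with the largest rises and the 15 with the largest falls. All passed, carry a standard symbol, average at least 4 on the log2 CPM scale and do not overlap between strains. Each point is 1 library, hel2 deletion in red above WT in blue, and the upright tick is the mean of 3. LEU2 is near 0 in the WT, SIR2 is the largest fall in this set with 20.7 to 23.9 against 39.6 to 45.7 CPM, and the deletion libraries of DAN1 are spread from 22.4 to 60.6 CPM.

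A pair of genes tied to nicotinamide adenine dinucleotide (NAD) stood in opposite places. PNC1 encodes nicotinamidase, which removes nicotinamide, an inhibitor of the deacetylase Sir2. It had 149, 148 and 135 CPM in the deletion libraries, against 59.5, 66.0 and 58.9 CPM in the WT libraries (1.23 ± 0.08, adjusted p = 1.9e-06). SIR2 itself, the NAD-dependent histone deacetylase of silent chromatin, had 23.9, 20.7 and 21.3 CPM in the deletion strain, against 43.6, 45.7 and 39.6 CPM in the WT. Its difference of -0.97 ± 0.10 (adjusted p = 8.7e-05) was the largest among the 15 leading falls, and it passed whichever 1 of the 6 libraries was left out. The partners of Sir2 at silent loci did not pass, with SIR1 at 0.21 (adjusted p = 0.455), SIR3 at 0.30 (adjusted p = 0.23) and SIR4 at 0.25 (adjusted p = 0.451). Of 26 silencing and subtelomeric genes SIR2 alone passed. The silent mating genes at HML stayed near 0, with 5, 4 and 2 counts of HMLALPHA1 in the deletion strain, against 2, 0 and 6 in the WT. HMLALPHA2 had 2, 5 and 5 counts in the deletion strain, against 1, 3 and 5 in the WT.

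Gcn4 signalling was examined gene by gene, since collided ribosomes act on Gcn2. GCN4 messenger RNA had 1080, 960 and 1113 CPM in the deletion libraries, against 1032, 1068 and 977 CPM in the WT libraries, and the groups overlapped (0.04 ± 0.09, adjusted p = 0.851). GCN2 differed by 0.01 (adjusted p = 0.978) and GCN1 by -0.06 (adjusted p = 0.754). Gcn4 is controlled mainly at translation, which these libraries do not measure. Of 18 genes of this signalling list, 1 was higher and 2 were lower. PCL5, the cyclin that directs destruction of Gcn4 and is itself a Gcn4 target, had 119, 108 and 125 CPM in the deletion strain, against 65.0, 69.6 and 71.4 CPM in the WT (0.78 ± 0.08, adjusted p = 4.71e-05). SUI2 and SUI3, the alpha and beta subunits of eIF2, differed by -0.30 (adjusted p = 0.0151) and -0.34 (adjusted p = 0.0372). The call of SUI2 was lost without hel2_1 (adjusted p = 0.0668), hel2_2 (0.0543), WT_1 (0.0521), WT_2 (0.0553) or WT_3 (0.0504). SUI3 lost it without hel2_2 (0.13), hel2_3 (0.0693), WT_1 (0.0711), WT_2 (0.139) or WT_3 (0.0977). Both lost it with library-size scaling, at 0.278 for SUI2 and 0.379 for SUI3. Without WT_MMS_1, 7 genes of the list were lower.

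The clearest rise among amino acid pathways was in arginine synthesis, whose genes are targets of Gcn4 and are repressed by arginine. Of 15 genes 6 were higher and 2 lower, and the median was 0.249. ARG1, argininosuccinate synthetase, had 69.1, 75.7 and 88.1 CPM in the deletion strain, against 42.6, 41.0 and 38.3 CPM in the WT (0.93 ± 0.10, adjusted p = 0.000103). ARG4, argininosuccinate lyase, differed by 0.72 and ARG3, ornithine carbamoyltransferase and named after its values were seen, by 0.71. The regulator ARG80 (-0.38) and the aminotransferase ARG8 (-0.31) were the 2 lower genes. The lower count was 0 without hel2_1, WT_1 or WT_2, 1 without each of the other libraries and 0 with library-size scaling, which gave 10 higher.

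Of 35 other Gcn4 targets 8 were higher and 2 lower, with a median of 0.0963, and besides PCL5 the largest were STR3 (0.59) of sulfur metabolism and TMT1 (0.53), a methyltransferase. The higher count was 4 without hel2_2, hel2_3, WT_2 or WT_3. The lower count, ADE4 and ADE1, was 1 without hel2_1, hel2_2, hel2_3, WT_2 or WT_3 and 5 without WT_MMS_1. STR3 lost its call without hel2_2 (adjusted p = 0.0932), hel2_3 (0.082), WT_2 (0.0932) or WT_3 (0.103). Of 7 histidine genes 1 was higher (HIS4, 0.40), of 10 lysine genes 1 (LYS1, 0.37) and of 15 aromatic genes 2 (ARO10, 0.42, and ARO1, 0.38). Each of these 4 genes lost its call without hel2_3 (adjusted p = 0.0506 for HIS4, 0.0896 for LYS1, 0.106 for ARO10 and 0.0816 for ARO1) and without WT_3 (0.0537, 0.104, 0.0921 and 0.0874 in the same order). LYS1, ARO10 and ARO1 also lost it without hel2_2 (0.0744, 0.167 and 0.069) and WT_2 (0.0821, 0.142 and 0.0916), and ARO10 without WT_1 (0.116).

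Enzymes at the head of the citrate cycle were higher in the deletion strain. Of 27 genes of the citrate and glyoxylate cycles 7 were higher and 0 lower, and the median was 0.0758. IDH2, a subunit of the mitochondrial isocitrate dehydrogenase, had 302, 308 and 313 CPM in the deletion libraries, against 161, 165 and 140 CPM in the WT libraries (0.99 ± 0.08, adjusted p = 8.63e-06). IDH1, its partner, averaged 453 ± 57.9 CPM in the deletion strain and 239 ± 9.62 CPM in the WT (0.92 ± 0.11). ACO1, aconitase, averaged 781 ± 62.6 CPM in the deletion strain and 439 ± 30.8 CPM in the WT (0.83 ± 0.11). These enzymes make the carbon precursor of glutamate. Of 39 respiratory chain genes only NDI1 (0.37), the internal NADH dehydrogenase, passed, and it lost its call without hel2_1 (adjusted p = 0.0689), hel2_2 (0.0649), hel2_3 (0.0633), WT_2 (0.0995) or WT_3 (0.0928). Without WT_MMS_1 the count was 3.

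Some genes of multidrug efflux were higher. RSB1, a lipid translocation gene, had 19.6, 24.8 and 20.2 CPM in the deletion strain, against 10.4, 11.3 and 8.76 CPM in the WT (1.08 ± 0.14, adjusted p = 0.000351). PDR5, the main drug efflux pump, had 2190, 2581 and 2332 CPM in the deletion strain, against 1454, 1257 and 1361 CPM in the WT (0.80 ± 0.12, adjusted p = 0.00134). PDR15, its paralog, differed by 0.72. In all, 6 of 23 multidrug efflux genes were higher and 0 lower, with a median of 0.112, and 3 were higher without WT_3.

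Iron uptake genes of the Aft1 regulon moved mostly upward, with 7 of 30 higher, 2 lower and a median of 0.250. FIT3, a wall mannoprotein that holds iron-bearing siderophores, had 1930, 2765 and 2796 CPM in the deletion strain, against 1465, 1352 and 1253 CPM in the WT (0.88 ± 0.18, adjusted p = 0.00946). ARN2, a siderophore transporter, differed by 0.78 and FRE2, a surface reductase, by 0.74. FRE4, another reductase gene, went the other way, with 18.7, 23.8 and 22.4 CPM in the deletion strain, against 36.5, 32.3 and 33.3 CPM in the WT (-0.65 ± 0.12, adjusted p = 0.00482). The higher count was 4 without hel2_3, WT_2 or WT_3, 12 without WT_MMS_1 and 15 with library-size scaling, and the lower count was 1 without hel2_1, hel2_2 or WT_1 and with that scaling. The zinc regulon was lower where it passed, with 0 of 12 higher, 4 lower and a median of -0.239. ZRT1, the high-affinity zinc transporter, had 43.6, 55.4 and 50.4 CPM in the deletion strain, against 94.2, 78.3 and 75.9 CPM in the WT (-0.73 ± 0.12, adjusted p = 0.0028). The zinc count was 1 without hel2_1, hel2_3, WT_1 or WT_3.

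Genes of recycling and nitrogen use showed modest rises. Of 33 autophagy genes 10 were higher and 0 lower, with a median of 0.230. ATG19 and ATG34, receptors that carry vacuolar enzymes into autophagic vesicles, differed by 0.67 and 0.78. The count was 6, 7 and 6 without hel2_1, hel2_2 and hel2_3, and 4, 5 and 4 without WT_1, WT_2 and WT_3. Of 9 vacuolar protease genes 3 were higher and 0 lower, led by TFS1 (0.91), an inhibitor of carboxypeptidase Y, and PRB1 (0.54), proteinase B. Of 25 genes under nitrogen catabolite repression 5 were higher and 0 lower, led by PUT1 (0.85) of proline breakdown and UGA1 (0.62) of GABA breakdown.

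**Figure D3:**
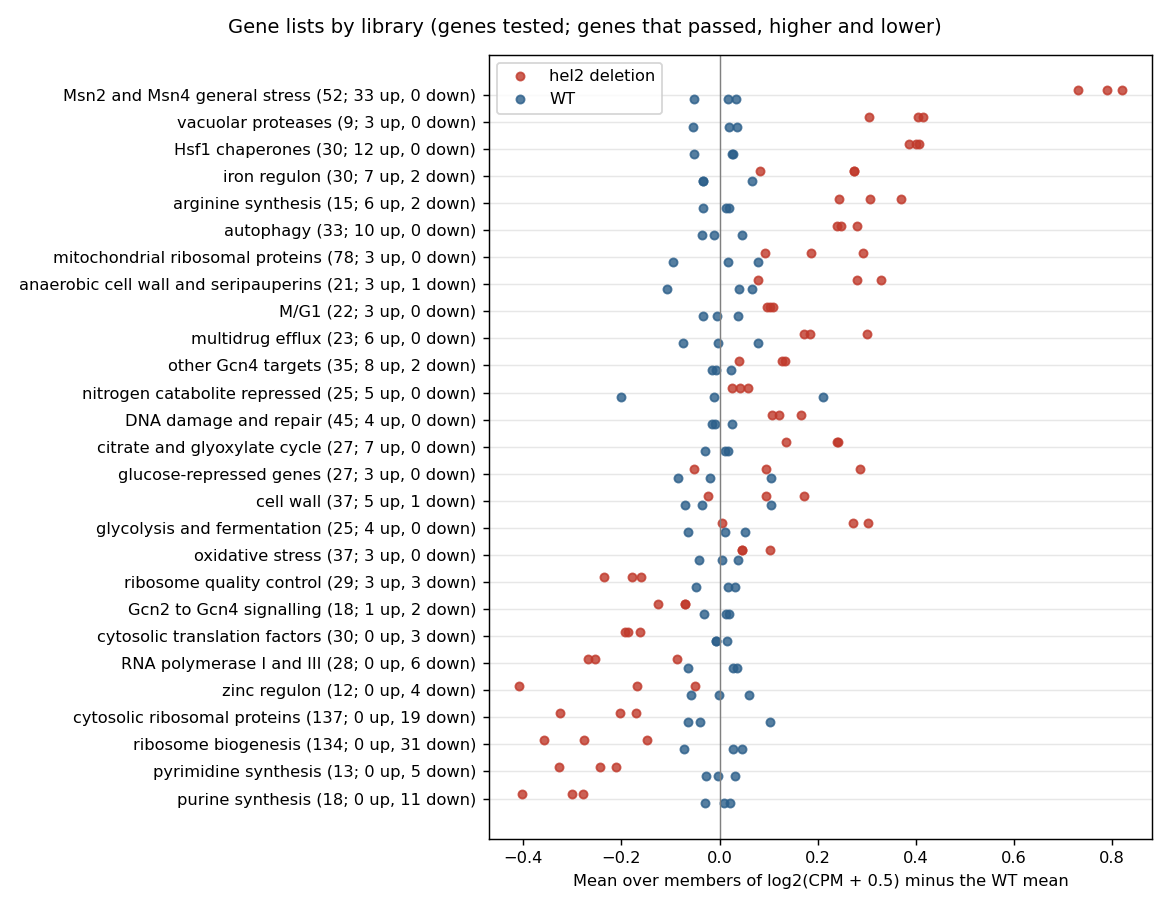
Mean over the members of each gene list of log2(CPM + 0.5) minus the WT mean, for each library (horizontal axis), hel2 deletion in red above WT in blue. Lists with at least 3 genes that passed are shown in order of their median difference, with the number of genes tested and of genes that passed in each direction. The general stress list stands from 0.732 to 0.822 in the deletion libraries, and purine, pyrimidine, ribosome biogenesis and ribosomal protein genes stand below 0 in each of them.

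Falls were smaller and were spread over the genes of growth. Purine synthesis had the most uniform fall of the 54 lists described by the share that passed, with 11 of 18 genes lower, 0 higher and a median of -0.337. AAH1, adenine deaminase, had 213, 196 and 234 CPM in the deletion libraries, against 354, 390 and 356 CPM in the WT libraries (-0.77 ± 0.09, adjusted p = 0.000219). IMD2, inosine monophosphate dehydrogenase of guanine nucleotide synthesis, had 50.1, 49.4 and 55.1 CPM in the deletion strain, against 87.4, 83.7 and 80.0 CPM in the WT (-0.70 ± 0.11, adjusted p = 0.00251). IMD4, a close relative of it, had 661, 848 and 800 CPM in the deletion strain, against 1205, 1113 and 1080 CPM in the WT (-0.56 ± 0.12, adjusted p = 0.0123). The IMD genes are near-identical in places, so reads may be split between them in ways the deposited counts do not show. IMD4 lost its call without hel2_1 (adjusted p = 0.0516) or WT_1 (0.0535). ADE4, the first enzyme of the pathway and named after its values were seen, averaged 286 ± 16.0 CPM in the deletion strain and 368 ± 8.37 CPM in the WT (-0.36 ± 0.06). With library-size scaling ADE4 (adjusted p = 0.0784), ADE13 (0.118), ADE2 (0.27) and ADE1 (0.328) lost their calls, and 8 genes of the list were lower. The count of 11 became 5, 7 and 8 without hel2_1, hel2_2 and hel2_3, and 6, 7 and 7 without WT_1, WT_2 and WT_3.

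Pyrimidine synthesis had 5 of 13 genes lower, 0 higher and a median of -0.315. URA7, CTP synthase, had 339, 354 and 363 CPM in the deletion libraries, against 495, 507 and 513 CPM in the WT libraries (-0.52 ± 0.08, adjusted p = 0.00235). URA1, dihydroorotate dehydrogenase, had 455, 435 and 498 CPM in the deletion strain, against 664, 705 and 664 CPM in the WT (-0.55 ± 0.10, adjusted p = 0.00468). URA1 lost its call with library-size scaling (adjusted p = 0.0532). Under that scaling 1 gene of the list was lower. The count was 3 without hel2_2 or WT_1 and 2 without WT_2.

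**Figure D4:**
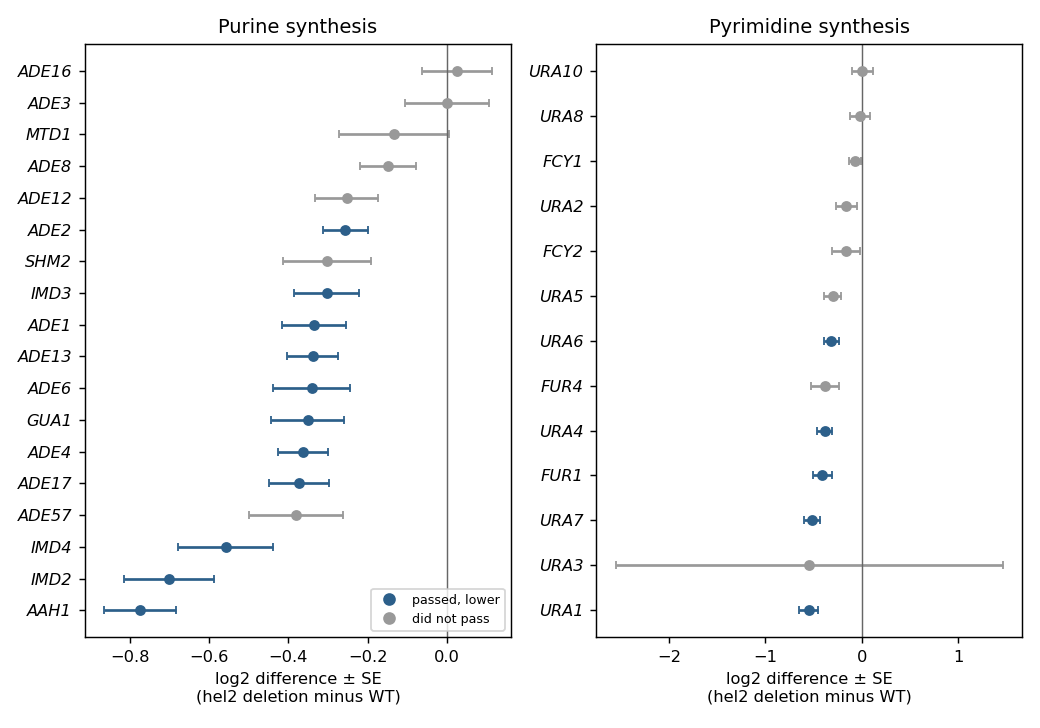
Log2 difference, hel2 deletion minus WT, with its SE (n = 3 libraries per strain) for each tested gene of purine and pyrimidine synthesis. Blue points passed as lower and grey did not pass. In purine synthesis 11 of 18 are lower and in pyrimidine synthesis 5 of 13 are lower. The wide bar belongs to URA3, which is removed in BY4741 and had few counts.

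Ribosome production genes were lower by small amounts. Of 134 ribosome biogenesis genes 31 were lower and 0 higher, with a median of -0.266. NSR1, a nucleolar protein gene of ribosomal RNA processing, had 666, 701 and 743 CPM in the deletion libraries, against 1064, 1085 and 1049 CPM in the WT libraries (-0.60 ± 0.08, adjusted p = 0.000549). ARX1, an export factor of the large subunit named after its values were seen, differed by -0.45 ± 0.06 (adjusted p = 0.000946). DBP2, an RNA helicase, averaged 669 ± 31.9 CPM in the deletion strain and 1115 ± 34.3 CPM in the WT (-0.74, adjusted p = 0.0191). DHR2, a helicase of small subunit assembly, and NIP7, a factor of the large subunit, differed by -0.59 and -0.55. The call of DBP2 was lost without hel2_1 (adjusted p = 0.0712), hel2_2 (0.0607), hel2_3 (0.0509), WT_2 (0.0667) or WT_3 (0.0595). DHR2 lost its call without hel2_2 (0.071), WT_2 (0.0687) or WT_3 (0.0668), and NIP7 without hel2_2 (0.0649) or WT_2 (0.0704). DHR2 and NIP7 also lost it with library-size scaling, at 0.154 and 0.126. The count of 31 became 16 without hel2_1, 19 without hel2_2, 17 without WT_2 or WT_3, 5 with library-size scaling and 64 without WT_MMS_1.

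Cytosolic ribosomal protein genes had 19 of 137 lower and 0 higher, with a median of -0.242, and 128 of the 137 differences were at or below 0. RPS28B, a small subunit protein gene, had 589, 617 and 679 CPM in the deletion libraries, against 907, 944 and 897 CPM in the WT libraries (-0.54 ± 0.09, adjusted p = 0.00365). RPS21A differed by -0.51 ± 0.10 (adjusted p = 0.00691). Most of these genes have a near-identical paralog, so the split of reads within a pair is uncertain. The count was smaller when any 1 of the 6 libraries was left out. It was 5, 3 and 14 without hel2_1, hel2_2 and hel2_3, and 4, 3 and 10 without WT_1, WT_2 and WT_3. It was 51 without WT_MMS_1, 6 with the replicate block, 47 with DESeq2 and 11 with library-size scaling. Of 28 genes of RNA polymerases I and III 6 were lower and 0 higher, with a median of -0.222. RPA12, a subunit of polymerase I, led them with -0.39 (adjusted p = 0.00621), and lost its call with library-size scaling (0.161). The count of 6 was 2 without hel2_1, hel2_2, hel2_3 or WT_1 and with library-size scaling, 1 without WT_3 and 10 without WT_MMS_1. Of 30 translation factors 3 were lower, and of 21 transfer RNA synthetases 2, with 0 higher in both. No synthetase difference was above 0, yet no more than 1 gene of either list passed when any 1 of the 6 libraries was left out. Without WT_MMS_1 the counts were 12 and 9.

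The mitochondrial ribosome did not share this direction. Of its 78 protein genes 3 were higher and 0 lower, a share below the 8.57% of all genes that passed. Of the differences 72 were above 0, and the median was 0.186. RSM19 (0.43) was the largest of the 3. The count was 1 without any 1 of the 6 libraries and 10 without WT_MMS_1. The small rises were not alike across libraries, in genes named after their values were seen. MRPL44 had 20.6, 12.8 and 11.0 CPM in the deletion strain, against 9.11, 14.0 and 11.4 CPM in the WT. Only hel2_1 stood above the WT range there, as at MRPL32, MRP35 and MRPL31. MRP20 had 28.3, 29.0 and 26.5 CPM in the deletion strain, against 23.5, 25.9 and 22.2 CPM in the WT, without overlap.

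Genes that act with Hel2 were mostly near no difference. Of 29 ribosome quality control genes 3 were higher and 3 lower, HEL2 included. The median was -0.0578, against 0.0116 over all genes, and 0.0439 against 0.113 with library-size scaling. MBF1, which prevents frameshifting on collided ribosomes, had 579, 672 and 618 CPM in the deletion libraries, against 473, 453 and 466 CPM in the WT libraries (0.43 ± 0.09, adjusted p = 0.00989). UFD1 (0.34) and NPL4 (0.33), partners of the segregase Cdc48, were the other 2 higher genes. RLI1, the ATPase that splits ribosomes, averaged 259 ± 18.8 CPM in the deletion strain and 321 ± 9.79 CPM in the WT (-0.31, adjusted p = 0.0338). RBG1, a ribosome-binding GTPase, averaged 246 ± 17.8 CPM in the deletion strain and 305 ± 2.63 CPM in the WT (-0.31, adjusted p = 0.0146). UFD1, NPL4, RLI1 and RBG1 each lost their call without hel2_1 (adjusted p = 0.105, 0.0877, 0.123 and 0.0653 in that order), WT_1 (0.16, 0.11, 0.117 and 0.0503) or WT_3 (0.135, 0.0584, 0.0745 and 0.0537). UFD1, NPL4 and RLI1 also lost it without hel2_2 (0.168, 0.0651 and 0.124) and WT_2 (0.078, 0.0758 and 0.0907), and UFD1 and NPL4 without hel2_3 (0.0621 and 0.0601). All 4 lost it with library-size scaling (0.102, 0.0798, 0.16 and 0.063). Without WT_MMS_1, 5 genes of the list were higher and 5 lower. ASC1, a small subunit protein that Hel2 needs to act, averaged 4420 ± 586 CPM in the deletion strain and 5703 ± 450 CPM in the WT, with no call (-0.37, adjusted p = 0.176). It passed without WT_MMS_1 (adjusted p = 0.0205). The helicase SLH1 (0.12), the endonuclease CUE2 (-0.19), the splitting factor DOM34 (-0.09), the ligase RKR1 (-0.06) and the tail-adding factor RQC2 (0.30) did not pass.

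Of 45 DNA damage and repair genes 4 were higher and 0 lower without any agent, with a median of 0.0837. The share that passed, 8.89%, was near the 8.57% of all genes. HUG1, a regulator of ribonucleotide reductase, had 37.1, 33.5 and 36.6 CPM in the deletion libraries, against 20.8, 22.0 and 17.8 CPM in the WT libraries (0.82 ± 0.10, adjusted p = 0.000354). RNR3, a damage-inducible subunit of that enzyme, differed by 0.61 (adjusted p = 0.0221). RNR3 lost its call without hel2_2 (adjusted p = 0.0609), hel2_3 (0.0829), WT_2 (0.0636) or WT_3 (0.0972). The photolyase PHR1 differed by 0.55 and lost its call without hel2_3 (0.0503) or WT_2 (0.0558). The count was 2 without hel2_2, hel2_3, WT_2 or WT_3.

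Genes outside the protein-coding set moved in part in 1 direction. Of 75 small nucleolar RNAs 10 were lower and 0 higher, and of 49 transposable element genes 7 were higher and 0 lower. Over all genes tested 3.33% were lower and 5.25% higher. YDR261W-B, a Ty gene, had 1172, 1025 and 1027 counts in the deletion libraries, against 523, 478 and 554 in the WT libraries (0.83, adjusted p = 0.00426). Ty copies share long stretches of sequence, so a single copy cannot be singled out from these counts. snR67 had 131, 119 and 143 counts in the deletion strain, against 233, 215 and 184 in the WT (-0.91, adjusted p = 0.0069). The libraries were selected for poly(A) tails, which small nucleolar and transfer RNAs lack as mature molecules, and their counts were low. These genes were named after their values were seen.

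Several groups showed no gene past the threshold in edgeR's test. These were G1/S and G2/M genes, histones, ergosterol synthesis, the unfolded protein response, the proteasome, RNA decay with the Ski complex, thiamine synthesis, flocculation, a-cell genes and housekeeping controls, 11 of 54 lists. Of their 212 entries 20 had an unadjusted p under 0.05, DESeq2 called 7 and voom called 0. ACT1, actin, had 3257, 4193 and 4158 CPM in the deletion strain, against 4345, 4025 and 3846 CPM in the WT (-0.07, adjusted p = 0.806). ALG9, a further control, differed by -0.15 (adjusted p = 0.379). By chromosome the median difference ran from -0.0118 on VIII to 0.0369 on XV, and the share of genes that passed from 6.35% on VI to 12.0% on II.

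The same strains were also compared with MMS, in other libraries. These were part of the same fit, so the comparisons shared the filter, the scaling and the estimate of spread. With MMS 3999 genes passed, 61.9% of those tested, with 32.0% higher in the deletion strain and 29.8% lower. The treated WT library WT_MMS_1 deviated more from its replicates than WT_MMS_2 and WT_MMS_3 did. The SD of its log2 deviations was 0.4292, against 0.3105 and 0.2983 for those libraries. Of the 554 genes that passed without MMS, 420 also passed in the same direction with it, 38 passed in the opposite direction and 96 did not pass. The 420 were 75.8% of the untreated calls and 10.5% of the calls with MMS. Among genes higher without MMS 243 of 339 were again higher, and among genes lower without MMS 177 of 215 were again lower. For 335 of the 554 the difference between strains itself differed between the conditions by the interaction test, which called 40.0% of all genes.

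For SIR2 the change between the conditions did not pass, with a difference of -0.82 with MMS and -0.97 without (adjusted p of the change = 0.425). HSP26 likewise differed by 1.78 with MMS and 1.75 without (adjusted p of the change = 0.931). Of the growth genes named here, several were further below the WT in the deletion strain with MMS than without. IMD2 differed by -2.51 with MMS and -0.70 without (adjusted p of the change = 6.43e-06), and URA7 by -1.96 with MMS and -0.52 without (3.09e-06). The ADE genes named as lower went the other way. ADE1 differed by 0.93 with MMS and -0.33 without (adjusted p of the change = 5.58e-06). ADE2 differed by 1.07 with MMS and -0.26 without (3.38e-07). ADE4 (0.14) and ADE13 (0.04) did not pass with MMS, and each changed between the conditions (adjusted p = 0.000796 and 0.00539). ARG1 differed by 2.14 with MMS and 0.93 without (adjusted p of the change = 3.89e-05). Some rises were smaller or turned with MMS. HXK1 was lower in the deletion strain with MMS, at -1.16 with MMS against 1.83 without (adjusted p of the change = 9.48e-08), and HUG1 at -1.65 with MMS against 0.82 without (2.79e-07). IDH2 (0.18), PDR5 (0.01) and BAT2 (-0.04) did not pass with MMS, and each changed between the conditions (adjusted p = 0.000123, 0.0025 and 0.00232 in that order).

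**Figure D5:**
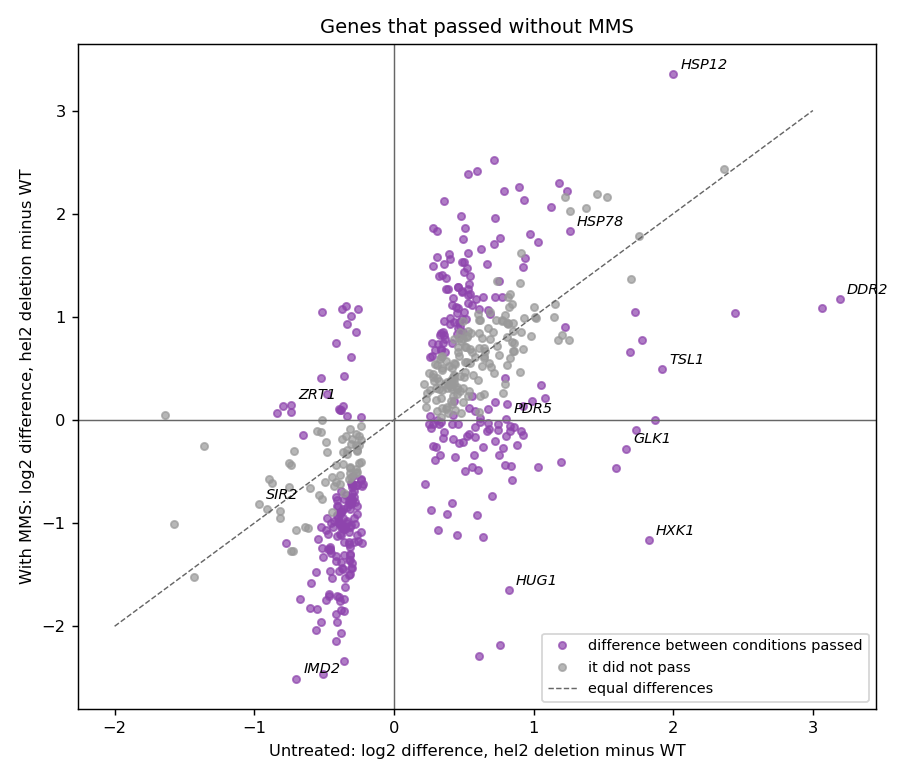
Log2 difference, hel2 deletion minus WT, with MMS (vertical axis) against that without MMS (horizontal axis) for 551 of the 554 genes that passed without MMS. HEL2, LEU2 and tL(CAA)C are left out because they lie outside the axes. Purple points changed between the conditions by the interaction test, grey points did not pass it, and the dashed line marks equal differences. HSP12 lies above the dashed line, IMD2 lies below it, and HXK1 and HUG1 lie below 0 with MMS.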

How the data were processed

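Poly(A) RNA of 12 samples was sequenced, and the authors deposited 1 table of whole-number read counts for each gene. STAR 2.5.1a, Subread, featureCounts 1.4.6-p5 and Salmon are named, per the submitters' processing notes. Sources used here do not give the build, annotation or strand setting, so reads of overlapping genes and close paralogs may be shared. The table had 7230 lines for 7109 identifiers, and 97 identifiers on several lines were used once. RefSeq R64 held 6042 of the identifiers.

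TMM scaling and edgeR 4.0.16 (quasi-likelihood, robust, R 4.3.3) were applied after filterByExpr, with all 12 libraries in 4 groups and no block. The threshold was a Benjamini-Hochberg adjusted p under 0.05 over 6463 genes. SE is the size of the difference over the square root of F. Log2 levels used a pseudocount of 0.5 CPM. p-values measure only the spread between these libraries, which may be in part technical.

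The comparison, the 54 lists and the naming rule were chosen with earlier results of these data known. Named were HEL2, LEU2, background markers, neighbours of both loci, the 15 largest rises and 15 largest falls averaging at least 4 on the log2 CPM scale without overlap, and up to 3 genes a list. Members of 3 lists, GCN4, GCN2, GCN1, ASC1, 3 controls and 5 genes without a symbol completed the rule, and the genes making up counts of 5 or fewer were added. Of the list entries 1519 were found and 3 were not (LAP4, VPS10 and FLO8). A gene counted in the arginine list is not reported here. Alternatives were median-ratio (RLE) and library-size scaling, DESeq2 1.42.0, voom of limma 3.58.1, other filters, a replicate block, the 6 libraries alone, no robust estimates and single libraries left out.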

Additional observations from a re-analysis of the deposited data

Results flagged for a closer look

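For 22 of the genes described, HEL2 and genes from the 30 leading rises and falls, the difference between the deletion strain and the WT was itself different with MMS by the interaction test. Values here are the log2 difference with MMS minus that without, each with an adjusted p under 0.05 over all genes (edgeR, n = 3 per group). This test called 40.0% of all genes tested.

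In 5 genes the fitted difference had the opposite sign with MMS. These were HXK1 at -2.99, DPI8 at -2.06, GLK1 at -1.94, DAN1 at -1.87 and ZRT1 at 0.88. Of these, HXK1 (-1.16) and DPI8 (-0.47) passed in the opposite direction with MMS, while DAN1 (-0.0045, adjusted p = 0.994), GLK1 (-0.28, 0.235) and ZRT1 (0.15, 0.311) did not pass there. In 6 genes it was smaller with MMS and of the same sign. These were LEU2 at -1.53, TSL1 at -1.43, YGP1 at -1.03, PNC1 at -0.33, FRE4 at 0.51 and HEL2 at 0.83. LEU2 in the WT and HEL2 in the deletion strain had few counts, so their values depend on those few.

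In 11 genes the difference was larger with MMS. One was a rise, HSP78, at 0.57. The others were falls: IMD2 at -1.81, IMD4 at -1.48, URA7 at -1.44, URA1 at -1.28, HXT4 at -1.22, PRM7 at -1.07, DHR2 at -0.98, NIP7 at -0.91, RPS28B at -0.61 and AAH1 at -0.42.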

How the results depend on the processing

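Across 18 alternatives, 0 of the named genes changed sign after passing. Of 151 named genes that passed, 93 did so without each of the 6 libraries in turn, and 85 under every alternative run. With all libraries 554 genes passed, 339 higher and 215 lower. Leaving out 1 library, WT_MMS_1 included, gave 305 to 1163 genes in all, 209 to 606 higher and 75 to 557 lower. Library-size scaling gave 75 lower genes, DESeq2 gave 839 in all and 419 lower, and a minimum mean log2 CPM of 4 left 30 genes past 2-fold, against 46. The causes were not tested, apart from fewer genes or libraries where the alternative itself removes them. The share of calls that were higher was 61.2%, against 85.4% with library-size scaling and 50.1% with DESeq2.

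A replicate block gave 402 genes, 267 higher and 135 lower, and 472 with only the 6 libraries. The numbers were not used as pairs in the results above. Same-numbered deletion and WT libraries correlated at -0.17, 0.118 and -0.0414 in their deviations from the group means. Even so, IMA4, IMA2, MAL32 and MMS2 were high in replicate 2 of both strains. Whether same-numbered libraries were handled together was not tested. Without genes high in 1 library, an alternative chosen after the data were seen, 561 genes passed. Low counts limit HEL2 in the deletion strain, LEU2 in the WT and the small RNAs. A planned description of promoter motifs was not run.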

Other observations

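The genes that rose most by ratio at a low level included LSO1, a small gene known from iron limitation. It had 110, 108 and 145 counts in the deletion libraries, against 18, 11 and 8 in the WT libraries, a log2 difference of 3.07 ± 0.28 (adjusted p = 2.44e-05, edgeR). RTC3, a general stress gene, had 11.1, 12.0 and 10.7 CPM in the deletion strain, against 3.30, 3.01 and 3.88 CPM in the WT (1.73 ± 0.11, adjusted p = 1.07e-06). Among oxidative stress genes 3 of 37 were higher and 0 lower, a share near the 8.57% of all genes that passed. GTT2, a glutathione transferase, led them at 0.80 (adjusted p = 0.000237). The count was 1 without hel2_2, hel2_3, WT_1 or WT_3 and 6 without WT_MMS_1. LSO1 and RTC3 were chosen after their values were seen, as were the genes that follow.

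Maltose and isomaltose genes were high in 1 replicate of each strain. IMA4, an isomaltase gene, had 20, 3846 and 37 counts in the deletion libraries, against 29, 2377 and 21 in the WT libraries. IMA2 had 379, 6069 and 367 counts in the deletion strain, against 383, 3463 and 176 in the WT. MAL32, a maltase gene, had 113, 2013 and 144 counts in the deletion strain, against 92, 1878 and 121 in the WT. MMS2, a ubiquitin-conjugating enzyme gene, had 1991, 22908 and 1889 counts in the deletion strain, against 1280, 34166 and 1395 in the WT. The high libraries were replicate 2 of both strains.

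In 34 genes 1 untreated library was at least 5 times above both others of its strain, with at least 50 counts, and 0 of these passed. YER188W had 401, 360 and 1337240 counts in the deletion strain, against 621, 334 and 476 in the WT, and 2.49% of all counts of hel2_3. NUP192, a nuclear pore gene, had 456061, 6188 and 7736 counts in the deletion strain, against 6919, 5353 and 6373 in the WT. YJR015W had 10567, 10653 and 11242 counts in the deletion strain, against 11727, 8875 and 665595 in the WT.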
